A study of Mus musculus with 20 samples.

Results

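MAZ and CTCF co-bound sites were the MAZ peaks of untreated cells that overlapped a CTCF peak of untreated cells by at least 1 bp. There were 481 of them among 6265 MAZ peaks, and among 136043 peaks in all 12 lists. The sites were chosen by these overlaps alone, and they are called co-bound only in the sense that both factors gave a called peak there in a population of cells. CTCF, MAZ and RAD21 were mapped by chromatin immunoprecipitation with sequencing in E14 mouse embryonic stem cells in which CTCF carries an auxin-inducible degron. Auxin has the tagged protein degraded. All 4 conditions share that tag: untreated degron cells (WT), degron cells given auxin for 2 days (ΔCTCF), untreated degron cells with a Maz knockout (ΔMAZ), and Maz knockout degron cells given auxin for 2 days (ΔCTCF/ΔMAZ). The titles give a single clone name for the knockout libraries. Each antibody had 1 list per condition, so no difference has a replicate check, and the 95% intervals cover counting error over peaks only.

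CTCF is a zinc finger protein that binds a long motif and halts cohesin, the ring complex that extrudes chromatin loops. MAZ is another zinc finger protein, which binds G-rich DNA, often at promoters, and has been described as an insulator factor. RAD21 is a core subunit of cohesin, and its peaks mark where cohesin is found most often.

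The DNA under several co-bound sites is shown first. Each window is 120 bases of the plus strand of mm10 around the MAZ summit. Capitals mark the MAZ core GGGAGGG or the CTCF core CCANNAGNNGGC, where N is any base, on either strand. Rusc1, 6820431F20Rik and 2610005L07Rik were the sites with the closest summits among those that held both strings within 100 bp of the MAZ summit. The other 5 stand for 5 classes described further on, each being the strongest MAZ site of its class that did not hold both strings and had at most 30 bases of untranslated region in the window.
Rusc1, chr3:89090841-89090960: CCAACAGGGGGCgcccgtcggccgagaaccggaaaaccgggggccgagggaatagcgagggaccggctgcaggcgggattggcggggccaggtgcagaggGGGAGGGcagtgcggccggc
6820431F20Rik, chr8:20297592-20297711: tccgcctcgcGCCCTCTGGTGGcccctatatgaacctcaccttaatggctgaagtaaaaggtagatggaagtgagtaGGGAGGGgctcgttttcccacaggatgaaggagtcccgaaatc
2610005L07Rik, chr8:20424784-20424903: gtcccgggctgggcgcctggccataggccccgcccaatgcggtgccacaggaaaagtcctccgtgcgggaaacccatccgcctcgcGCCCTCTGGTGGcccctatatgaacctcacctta
Ppp2r5b, chr19:6235844-6235963: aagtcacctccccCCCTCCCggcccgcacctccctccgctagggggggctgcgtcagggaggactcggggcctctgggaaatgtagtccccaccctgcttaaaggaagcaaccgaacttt
Gm11175, chr8:70700713-70700832: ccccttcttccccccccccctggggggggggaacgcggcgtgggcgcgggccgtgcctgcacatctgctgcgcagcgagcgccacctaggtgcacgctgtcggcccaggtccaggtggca
3110067C02Rik, chrX:150477905-150478024: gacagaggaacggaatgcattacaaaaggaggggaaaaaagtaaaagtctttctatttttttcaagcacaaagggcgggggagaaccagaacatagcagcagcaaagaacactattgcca
Pgk1, chrX:106186827-106186946: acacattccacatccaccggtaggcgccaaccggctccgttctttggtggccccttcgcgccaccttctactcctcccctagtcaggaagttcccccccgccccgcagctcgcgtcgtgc
Kmt2a, chr9:44881389-44881508: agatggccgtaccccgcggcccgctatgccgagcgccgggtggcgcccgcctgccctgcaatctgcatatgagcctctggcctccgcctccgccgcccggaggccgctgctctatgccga
In the Rusc1 window, which lies in a coding exon at -856 bp from the nearest start site, both strings stand on the plus strand on opposite sides of the summit. The windows at 6820431F20Rik and 2610005L07Rik share an identical run of 44 bases with the same CTCF core, so reads from these stretches of chromosome 8 could be placed at either. The MAZ core of 2610005L07Rik lies beyond the printed window. The Ppp2r5b window, centred at -32 bp from the start of a phosphatase subunit gene, holds the MAZ core on the minus strand. The printed windows at Gm11175, 3110067C02Rik, Pgk1 and Kmt2a hold neither string in full.

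Few MAZ peaks were co-bound, and those that were lay mostly at gene starts. Co-bound sites made up 7.68% of MAZ WT peaks (7.04 to 8.36). They came from 483 overlapping pairs, and 481 of 26394 CTCF WT peaks took part. The MAZ summit lay within 1 kb of a transcription start site at 364 of 481 co-bound sites, which is 75.7% (71.6 to 79.3). The share was 76.7% (75.6 to 77.7) for MAZ peaks without CTCF and 9.71% (9.35 to 10.1) for CTCF peaks without MAZ. The co-bound sites thus had the promoter share of MAZ peaks. Of the others, 65 were intergenic, 35 intronic, 10 on coding exons, 5 in untranslated regions and 2 on noncoding exons. The base composition also resembled that of MAZ peaks. Median GC content of the 201 bp around the summit was 69.7% at co-bound MAZ peaks, 69.2% at MAZ peaks without CTCF and 48.3% at CTCF peaks without MAZ.

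The strengths of both factors were read from the fold enrichment at the summit, the ratio of reads to local background in that library. Median MAZ fold enrichment was 5.18 at co-bound sites and 5.09 at other MAZ peaks. Median CTCF fold enrichment was 20.0 at co-bound CTCF peaks and 13.2 at other CTCF peaks. Strong CTCF peaks were over-represented, with 212 of 481 in the strongest of 5 equal groups of the CTCF list. Across the 481 sites the strengths of the factors had a Spearman's rho of -0.050, a description of sites that share the same libraries. At the edge of the rule, 28 sites overlapped by 50 bp or less, with a median MAZ fold enrichment of 5.32. Just outside it, 30 MAZ peaks had a CTCF peak within 50 bp but no overlap, with a median of 5.11.

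The sites with the strongest MAZ peaks were at Kmt2a, a histone methyltransferase gene (31.2), 1110032A03Rik (15.9), Mir26b (15.5), Ppp2r5b (15.5) and Gm11175 (14.9), each given as MAZ WT fold enrichment. CTCF WT fold enrichment at the same sites was 16.8, 23.0, 4.98, 8.66 and 14.0. The sites with the strongest CTCF peaks were at Nipsnap2 (77.1), Sh3gl1 (69.1), Kdm3b (67.5), Vps18 (64.6) and Nol9 (62.9), each given as CTCF WT fold enrichment. Their MAZ WT fold enrichments lay between 3.55 at Sh3gl1 and 7.28 at Nipsnap2. All of these sites but Mir26b lay within 1 kb of a start site, and no site was in both groups.

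The distance between summits is bounded by the overlap rule, since the peaks had to overlap and their median widths were 328 bp for MAZ and 319 bp for CTCF. The median distance was 102 bp, with quartiles of 45 and 197 bp and a maximum of 613 bp, and 141 sites had summits within 50 bp. The closest summits lay 1 bp apart at Utp6 and 2 bp apart at Gm11175 and at Rusc1. The farthest lay 613 bp apart near Gm35933, 569 bp at Mir762 and 565 bp at Pdgfa, which encodes a growth factor. Median distance was 102.5 bp at promoters and 101 bp elsewhere.

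At the 364 promoter sites the summits had an order along the gene. The MAZ summit had a median position of -43.5 bp from the start site, where minus is upstream, and the CTCF summit one of -107 bp. The MAZ summit was the nearer to the start at 266 of 364 sites, which is 73.1% (68.3 to 77.4). MAZ lay downstream of CTCF along the gene at 257 of 364, which is 70.6% (65.7 to 75.0), by a median of 53 bp over all 364. The start site was the one nearest the MAZ summit, which favours MAZ as the nearer factor. With the start nearest the CTCF summit, a choice added after seeing the data, MAZ was the nearer at 231 of 362 sites, 63.8% (58.7 to 68.6), and downstream at 70.4% (65.5 to 74.9). With the start nearest the point midway between the summits, also added, the shares were 66.9% (61.9 to 71.6) and 69.4% (64.5 to 73.9) of 363. At promoter peaks of MAZ without CTCF the median position was -31 bp, and at those of CTCF without MAZ it was -80 bp.

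The CTCF core was found within 100 bp of the CTCF summit at 100 of 481 sites, 20.8% (17.4 to 24.6), against 50.1% (49.5 to 50.7) of CTCF peaks without MAZ. Both sets held it less often at promoters, here taken by the CTCF summit. The promoter shares were 17.7% (14.1 to 22.0) of 361 co-bound CTCF peaks and 35.1% (33.2 to 36.9) of 2516 others. Away from promoters they were 30.0% (22.5 to 38.7) of 120 and 51.7% (51.1 to 52.3) of 23397. At the 100 sites with the core, the string gives a direction. The MAZ summit lay on the side of its GGC end at 69, which is 69.0% (59.4 to 77.2), at a median of 57.5 bp from the centre of the core toward that end. The share was 67.7% (55.6 to 77.8) of 65 promoter sites and 71.4% (54.9 to 83.7) of 35 other sites. At the promoter sites the core was on the strand of the gene at 41 of 65, so gene direction and core direction were partly tied.

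Around the MAZ summit, the CTCF core was found within 100 bp at 54 of 481 co-bound sites, 11.2% (8.71 to 14.4), and at 1.78% (1.47 to 2.15) of MAZ peaks without CTCF. It was found in 1.46% (0.869 to 2.43) of windows placed 1 kb to either side of the co-bound summits. The MAZ core was found at 181 of 481 co-bound MAZ summits, 37.6% (33.4 to 42.0), and at 47.3% (46.0 to 48.6) of MAZ peaks without CTCF. Windows 1 kb beside the co-bound summits held it in 11.1% (9.29 to 13.3). Both strings were present at 24 sites, and at 0 of these did they share bases. Neither was present at 270. In windows of 300 bases, the CTCF core was found at 15.4% of co-bound MAZ summits and in 2.43% of 32851 RefSeq promoters, and the MAZ core at 44.3% and in 22.0%. These are counts of exact letters, and sites that differ from them by a base are not counted.

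To ask whether MAZ peaks that overlapped CTCF peaks in WT were called again, the MAZ list of ΔCTCF was examined. A MAZ peak was called again at 272 of 481 co-bound sites, 56.5% (52.1 to 60.9). The background over all MAZ WT peaks was 66.3%, and MAZ peaks without CTCF were called again in 67.1% (65.9 to 68.3). The difference was -10.5 percentage points (-15.2 to -6.00), and -11.9 (-16.5 to -7.35) once the other peaks were weighted to the strengths of the co-bound ones. In each of the 5 strength groups the co-bound share was the lower one. It was 37.6% (28.5 to 47.8) against 45.9% (43.1 to 48.8) in the weakest group and 80.6% (72.1 to 86.9) against 95.3% (93.9 to 96.4) in the strongest. The intervals overlapped in the weakest and in the middle group. The ΔCTCF list was not shorter than the WT list, with 6759 peaks. The difference kept its direction with lists of equal length, with stricter peaks and with other overlap rules, between -7.76 and -16.8 points.

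The share depended on how close the summits were. MAZ was called in ΔCTCF at 46.1% (38.1 to 54.3) of the 141 sites with summits within 50 bp. It was called at 53.1% (43.3 to 62.6) of 98 sites at 51 to 100 bp, at 55.1% of 69 sites at 101 to 150 bp, at 58.3% of 60 sites at 151 to 200 bp and at 67.6% of 68 sites at 201 to 300 bp. Beyond 300 bp it was called at 80.0% (66.2 to 89.1) of 45 sites. Sites with summits within 50 bp thus stood below MAZ peaks without CTCF, and those beyond 200 bp did not. The order held away from promoters. There, MAZ peaks without CTCF were called in 55.5% (52.9 to 58.2), and co-bound MAZ at 7 of 35 sites within 50 bp, 20.0% (10.0 to 35.9), and at 16 of 21 sites at 201 to 300 bp, 76.2% (54.9 to 89.4), and at 6 of 7 beyond 300 bp. At promoters the same bins gave 54.7% (45.2 to 63.9) of 106, 63.8% (49.5 to 76.0) of 47 and 78.9% (63.7 to 88.9) of 38, beside 70.6% (69.2 to 71.9) of MAZ peaks without CTCF. Peaks called again had a median width of 368.5 bp against 328 bp over all co-bound sites, and a wide peak both reaches farther from CTCF and overlaps more easily. The part of peak width in this trend was not tested. Within each of the 5 MAZ strength groups the share was lower for summits up to 150 bp apart than for those farther apart, at 18 of 66 sites against 15 of 25 in the second weakest and 78.5% (67.0 to 86.7) of 65 against 83.7% (70.0 to 91.9) of 43 in the strongest. The intervals overlapped in all but the second weakest.

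**Figure D1:**
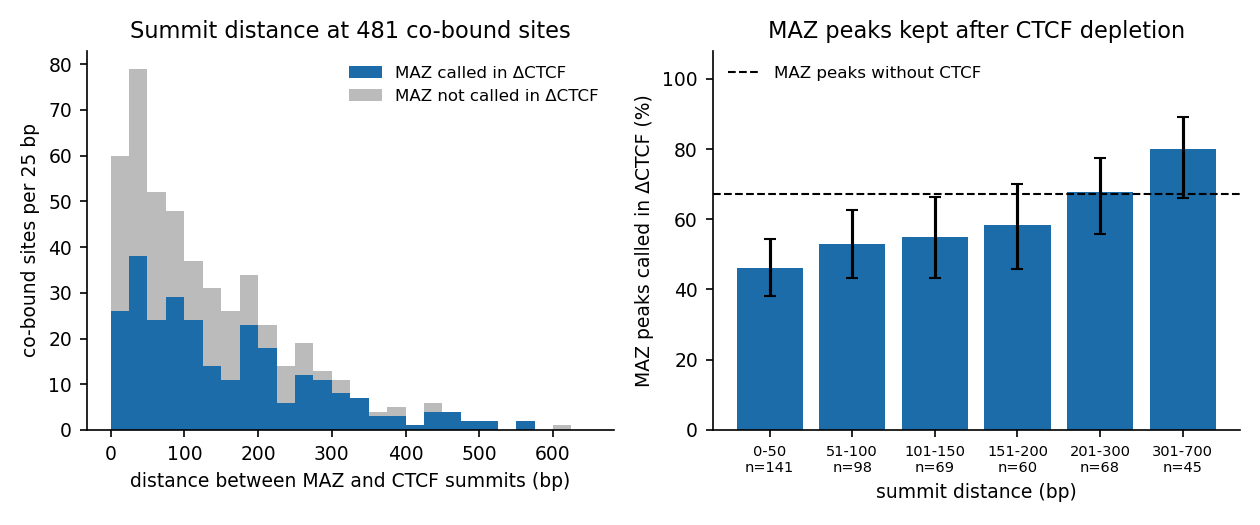
Left, number of co-bound sites per 25 bp of distance between MAZ and CTCF summits, split by whether MAZ was called in ΔCTCF; right, percent of MAZ peaks called in ΔCTCF by summit distance with Wilson 95% intervals, and the value for MAZ peaks without CTCF as a dashed line. The share was 46.1% for summits within 50 bp and 80.0% beyond 300 bp, on either side of the dashed line at 67.1%.

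Sites without a MAZ peak in ΔCTCF included strong ones. The strongest was 14239 bp downstream of the start of 3110067C02Rik, with a MAZ fold enrichment of 12.5 in WT, and RAD21 was called there with 17.4 in WT, 19.1 in ΔCTCF and 27.0 in ΔMAZ. Next came Sik2, a kinase gene, with a MAZ WT fold enrichment of 11.7, and 2210008F06Rik with 11.5. At Sik2 the CTCF peak was not called in ΔCTCF either, and RAD21 had a fold enrichment of 19.5 in WT and 5.15 in ΔCTCF. These fold enrichments come from separate libraries and are not on a common scale.

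CTCF at co-bound sites was mostly called in the Maz knockout. Of the 481 co-bound CTCF peaks, 445 overlapped a CTCF peak of ΔMAZ, 92.5% (89.8 to 94.5), against a background of 85.5% over all CTCF WT peaks. CTCF peaks without MAZ gave 85.4%, and 91.1% when weighted to the same strengths, a difference of 1.41 points (-0.949 to 3.77). The share rose with CTCF strength as it did over all CTCF WT peaks. In the weakest of 5 groups it was 54.2% (41.7 to 66.3) of 59 against 51.5% over all, and in the next 84.7% (73.5 to 91.8) against 80.0%. In the upper 3 groups all 363 co-bound peaks were called, against 96.6%, 99.6% and 100% over all. At called sites the median ratio of ΔMAZ to WT fold enrichment was 1.00 for co-bound CTCF peaks and 0.954 for other CTCF peaks.

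After auxin, 87 of 481 co-bound CTCF peaks were called in ΔCTCF, 18.1% (14.9 to 21.8). The background was 8.83% over all CTCF WT peaks. Weighted to the same strengths, CTCF peaks without MAZ gave 16.0%, a difference of 2.06 points (-1.43 to 5.55). With the WT list cut to its 2381 strongest peaks, the length of the ΔCTCF list, which also restricts the strength of the peaks, the co-bound share was 40.1% of 137 and that of other CTCF peaks 42.6%, a difference of -2.50 points (-10.6 to 6.11). Both intervals included 0. Among the strongest CTCF peaks, 31.6% (25.7 to 38.1) of 212 co-bound and 31.3% (30.0 to 32.6) of other peaks were called. The 2 weakest groups differed. In the weakest group 4 of 59 co-bound peaks were called, 6.78% (2.67 to 16.2), against 0.709% (0.515 to 0.975) of other peaks, and in the next group 6 of 59 were called, 10.2% (4.74 to 20.5), against 0.479% (0.325 to 0.706). Of these 10 peaks, 8 belong to the group of sites described next, and 5 of them lie in the Ctcf gene. Without the Ctcf gene the counts were 3 of 58, 5.17% (1.77 to 14.1), and 2 of 55, 3.64% (1.00 to 12.3). By summit distance, CTCF was called in ΔCTCF at 24.1% (17.8 to 31.8) of sites within 50 bp, 20.4% at 51 to 100 bp, 23.2% at 101 to 150 bp, 10.0% at 151 to 200 bp, 7.35% (3.18 to 16.1) at 201 to 300 bp and 11.1% (4.84 to 23.5) beyond 300 bp. The interval of the closest sites overlapped that of the farthest sites, and did not overlap that of sites at 201 to 300 bp.

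A small group of co-bound sites had a higher CTCF fold enrichment after auxin than before, a group singled out after its values were seen. There were 12 among the 87 called co-bound CTCF peaks, 13.8% (8.07 to 22.6), and 42 among 2244 called CTCF peaks without MAZ, 1.87% (1.39 to 2.52). The values before and after auxin come from separate libraries and are not on a common scale. Of the 12, 6 lay inside the Ctcf gene itself, chr8:105636568-105682922, and their MAZ summits were all on its coding exons. They were 6 of the 10 co-bound sites found on coding exons away from promoters. At these 6 sites the CTCF fold enrichment was 6.84 to 13.3 in WT and 8.97 to 17.0 in ΔCTCF. Ctcf has 10 separate coding exons in the annotation. A CTCF peak overlapped 8 of them in WT and 9 in ΔMAZ, and after auxin 10 in ΔCTCF and 6 in ΔCTCF/ΔMAZ. A MAZ peak overlapped 7 in WT, 2 in ΔCTCF, and 0 in each of the knockout conditions, whose MAZ lists held 33 peaks each. A RAD21 peak overlapped 2 in WT and 4 in ΔMAZ, and after auxin 8 in ΔCTCF and 3 in ΔCTCF/ΔMAZ. Ctcf is the gene that carries the degron tag in these cells, and whether peaks on its exons come from the native gene was not tested. Leaving out the peaks in Ctcf, CTCF was called in ΔCTCF at 17.1% (13.9 to 20.7) of 475 sites.

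The other 6 such sites had their nearest start sites at Kmt2a, Pgk1, Carm1, Hoxa3, Mir615 and Gm39041. The Carm1 site lay at -1808 bp from the start, in an untranslated region. The Gm39041 site lay 25142 bp downstream of the start, in an intron. The rest lay within 1 kb of a start site. CTCF at Kmt2a had a fold enrichment of 16.8 in WT, 24.3 in ΔCTCF and 25.8 in ΔMAZ. At Pgk1, which encodes a glycolytic enzyme, the WT value was 12.0, the ΔCTCF value 20.0 and the ΔMAZ value 32.5. At Carm1, a gene for an arginine methyltransferase, these were 18.1, 23.5 and 16.0. The 3 weaker sites went from 6.57 to 6.81 at Hoxa3, from 6.58 to 10.3 at Mir615 and from 5.23 to 5.78 at Gm39041. The Pgk1 and Carm1 sites also overlapped a peak of a knockout MAZ list, where MAZ protein should be absent, and no other co-bound site did so.

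**Figure D2:**
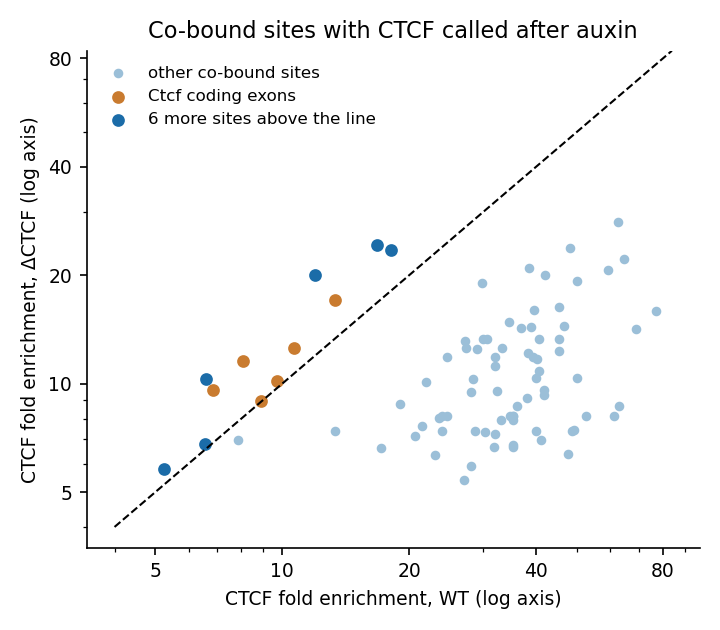
CTCF fold enrichment in WT (x, log axis) and in ΔCTCF (y, log axis) at the 86 co-bound MAZ sites whose CTCF partner was called after auxin; the dashed line marks equal values. The 6 sites on Ctcf coding exons (orange) and 6 more (dark blue) lie above the line, and the remaining 74 (light blue) lie below it, most of them above 20 in WT.

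To follow cohesin at these sites, RAD21 peaks were looked up in the 4 conditions. In WT, RAD21 was called at 295 of 481 co-bound sites, 61.3% (56.9 to 65.6), against a background of 8.32% over all MAZ WT peaks. It was called at 269 in ΔCTCF, 55.9% (51.5 to 60.3), against 31.2%. It was called at 331 in ΔMAZ, 68.8% (64.5 to 72.8), against 11.8%. It was called at 145 in ΔCTCF/ΔMAZ, 30.1% (26.2 to 34.4), against 9.48%. In each condition the co-bound share stood above that of MAZ peaks without CTCF, by 57.4, 26.8, 61.8 and 22.4 points in the same order. Taken over the CTCF peaks of the pairs, WT gave 62.0%, ΔCTCF 54.5%, ΔMAZ 69.2% and ΔCTCF/ΔMAZ 29.9%. The backgrounds over all CTCF WT peaks were 66.3%, 27.9%, 66.2% and 15.9%. Weighted to the same CTCF strengths, CTCF peaks without MAZ gave 76.1%, 41.1%, 76.9% and 25.7%. Against these, the co-bound share differed by -14.2 points (-18.5 to -9.82) in WT, 13.4 points (8.87 to 17.9) in ΔCTCF, -7.68 points (-11.8 to -3.53) in ΔMAZ and 4.21 points (0.0682 to 8.36) in ΔCTCF/ΔMAZ. With promoter position added to the weights, the differences were -8.16 (-12.7 to -3.63), 12.3 (7.60 to 16.9), -3.81 (-8.09 to 0.482) and 3.70 (-0.625 to 8.02). Without weights they were -4.47 (-8.92 to -0.201), 27.1 (22.6 to 31.5), 3.05 (-1.25 to 7.05) and 14.3 (10.4 to 18.6). In ΔCTCF the co-bound share was thus the higher one with and without weights. The difference in WT varied in size with the weights, and that in ΔMAZ changed sign.

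The RAD21 lists were of unequal length, between 6400 peaks in ΔCTCF/ΔMAZ and 20872 in ΔMAZ, and the order of the conditions depended on it. With the 6400 strongest peaks of each list, RAD21 was called at 21.2% (17.8 to 25.1) of co-bound sites for WT, 28.5% (24.6 to 32.7) for ΔCTCF, 25.8% (22.1 to 29.9) for ΔMAZ and 30.1% (26.2 to 34.4) for ΔCTCF/ΔMAZ. The backgrounds over all MAZ WT peaks were then 1.74%, 6.99%, 2.11% and 9.48%. The lower share in ΔCTCF/ΔMAZ, seen with whole lists, was therefore not seen at equal length. Over the CTCF peaks, the unweighted difference from CTCF peaks without MAZ was then -2.74 points (-6.21 to 1.18) in WT, 10.4 (6.53 to 14.6) in ΔCTCF, 1.64 (-2.11 to 5.76) in ΔMAZ and 14.3 (10.4 to 18.6) in ΔCTCF/ΔMAZ. The intervals for WT and ΔMAZ included 0. A list cut by rank gives the share of a library's strongest peaks, and neither count is a level of RAD21. The lists carry no read totals.

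**Figure D3:**
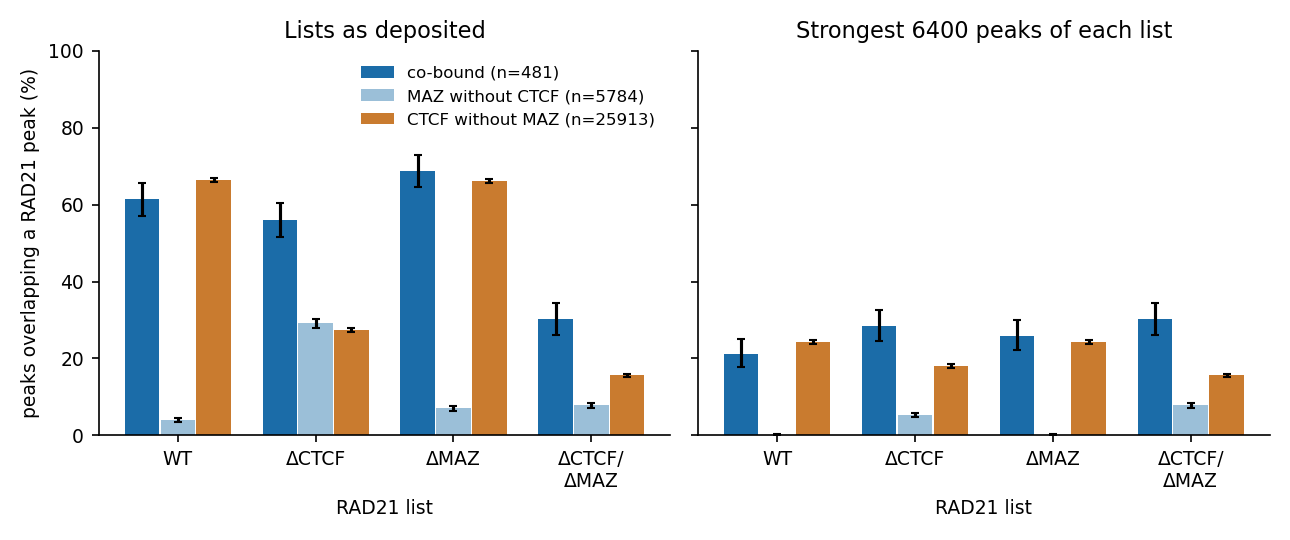
Percent of co-bound MAZ peaks, of MAZ peaks without CTCF and of CTCF peaks without MAZ that overlapped a RAD21 peak in each condition, with Wilson 95% intervals, for the lists as deposited (left) and the strongest 6400 peaks of each (right). The last set counts CTCF peaks and the others count MAZ peaks. With whole lists co-bound sites went from 61.3% in WT to 30.1% in ΔCTCF/ΔMAZ, and with equal lists from 21.2% to 30.1%.

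After CTCF depletion, RAD21 was called more often at co-bound sites than at other CTCF peaks. Of the 298 co-bound CTCF peaks with RAD21 in WT, 218 had it in ΔCTCF, 73.2% (67.9 to 77.9). Of the 17212 CTCF peaks without MAZ but with RAD21 in WT, 39.7% (39.0 to 40.4) had it. Weighted to the same CTCF strengths the latter share was 51.2%, a difference of 21.9 points (16.9 to 27.0). Weighted to strength and promoter position it was 54.1%, a difference of 19.1 points (13.8 to 24.4). In the weakest CTCF strength group the shares were 59.3% (40.7 to 75.5) of 27 and 5.03% (4.06 to 6.23) of 1570, and in the strongest 83.3% (76.8 to 88.3) of 162 and 70.4% (69.1 to 71.7) of 4679. With the RAD21 lists at equal length the shares were 75.7% (66.6 to 83.0) of 103 and 55.4% (54.2 to 56.7) of 6258. Against MAZ peaks without CTCF the co-bound sites did not stand higher. Only 226 of those had RAD21 in WT, and 79.6% (73.9 to 84.4) of them had it in ΔCTCF, while the co-bound MAZ peaks gave 73.9% (68.6 to 78.6). Among sites without RAD21 in WT, 27.4% (21.5 to 34.2) of 186 co-bound MAZ peaks had it in ΔCTCF, 27.1% (25.9 to 28.3) of MAZ peaks without CTCF and 3.01% (2.67 to 3.39) of CTCF peaks without MAZ.

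The cohesin shares of promoter and distal sites were set beside those of all peaks. RAD21 was called in WT at 73.5% (64.9 to 80.7) of 117 co-bound sites away from promoters and at 57.4% (52.3 to 62.4) of 364 promoter sites. In the same order, all MAZ WT peaks gave 12.1% and 7.17%, and all CTCF WT peaks 67.0% and 61.1%. In ΔCTCF the co-bound shares were 66.7% (57.7 to 74.6) and 52.5% (47.3 to 57.5), against 36.9% and 29.4% for all MAZ WT peaks and 26.9% and 35.5% for all CTCF WT peaks. In WT the distal share was thus the higher one at co-bound sites and over all peaks of either factor. In ΔCTCF it was the higher one at co-bound sites and over all MAZ peaks, and the lower one over all CTCF peaks. In ΔCTCF/ΔMAZ the co-bound shares were 36.8% (28.6 to 45.8) and 28.0% (23.7 to 32.9), with intervals that overlapped, against 10.8% and 9.09% for all MAZ WT peaks and 15.3% and 20.6% for all CTCF WT peaks. RAD21 was called most often at the strongest CTCF peaks, co-bound or not. In the 5 strength groups of the CTCF list, starting with the weakest, it was called in WT at 45.8%, 35.6%, 61.4%, 56.4% and 76.4% of co-bound CTCF peaks, against 30.3%, 52.2%, 72.6%, 84.9% and 91.7% of all CTCF WT peaks. In ΔCTCF/ΔMAZ it was called at 8.47%, 13.6%, 22.8%, 26.6% and 43.9%, against 0.985%, 2.5%, 8.70%, 21.7% and 45.5%.

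The sites were also sorted by which factor was called in ΔCTCF. MAZ without CTCF was called at 224 of 481 sites, both at 48, CTCF without MAZ at 38 and neither at 171, taking for each MAZ peak its main CTCF partner. RAD21 was called in ΔCTCF at 121 of the 224 sites with MAZ alone, 54.0% (47.5 to 60.4). It was called at 77 of the 171 sites with neither, 45.0% (37.8 to 52.5), an interval that overlaps the former. It was called at 38 of 48 sites with both, 79.2% (65.7 to 88.3), and at 33 of 38 sites with CTCF alone, 86.8% (72.7 to 94.2). Sites with a CTCF peak left thus had RAD21 more often than sites without one, and so did all CTCF WT peaks, at 91.4% (90.2 to 92.5) of 2331 against 21.7% (21.2 to 22.2) of 24063. The strongest MAZ sites with MAZ and RAD21 but no CTCF peak in ΔCTCF were 1110032A03Rik, Ppp2r5b and Mafa, a transcription factor gene. Their RAD21 fold enrichments in ΔCTCF were 3.46, 3.59 and 4.05. In WT they were 5.22 at 1110032A03Rik and 9.28 at Mafa, with no RAD21 peak at Ppp2r5b.

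Taking the 4 lists together, RAD21 was called in all 4 conditions at 119 sites, 24.7% (21.1 to 28.8), against backgrounds of 2.76% over all MAZ WT peaks and 14.7% over all CTCF WT peaks. It was called in none at 98 sites, 20.4% (17.0 to 24.2), against 63.3% and 26.5%. It was called in all but ΔCTCF/ΔMAZ at 93 sites, 19.3%, against 2.41% of all MAZ and 11.8% of all CTCF WT peaks. It was called in WT and ΔMAZ without the others at 60, 12.5%, against 1.23% and 32.3%. ΔMAZ alone had 32, 6.65%, against 1.53% and 5.87%, and ΔCTCF alone had 24, 4.99%, against 18.7% and 0.409%. Median CTCF fold enrichment was 27.3 at the 119 sites with RAD21 in every condition and 14.1 at the 98 with none, against 24.3 and 7.99 over all CTCF WT peaks so sorted. CTCF was called in ΔCTCF at 39.5% of the 119 sites and at 7.14% of the 98, against 44.5% and 0.643% over all CTCF WT peaks so sorted. MAZ was called in ΔCTCF at 58.0% (49.0 to 66.5) and 57.1% (47.3 to 66.5) of them, against 62.4% and 62.9% over all MAZ WT peaks so sorted. The strongest MAZ sites with RAD21 in every condition were Pgk1, Carm1 and Pdrg1. Of these, Pgk1 and Carm1 are the sites that also overlapped a peak of a knockout MAZ list. At Pdrg1 RAD21 had a fold enrichment of 18.3 in WT and 27.8 in ΔMAZ, and after auxin 20.7 in ΔCTCF and 12.4 in ΔCTCF/ΔMAZ. Among the 5 sites with the strongest CTCF peaks, Sh3gl1 and Vps18 had RAD21 throughout. At Vps18 the fold enrichments were 33.7 in WT and 38.2 in ΔMAZ, and 26.4 in ΔCTCF and 18.3 in ΔCTCF/ΔMAZ. At Sh3gl1 they were 7.59 and 8.49, and 4.05 and 7.47. RAD21 was called in none of the 4 conditions at Kmt2a, at Mir26b and at Rnf215, which are the strongest MAZ sites of that kind. Sites with RAD21 in WT and ΔMAZ but not in ΔCTCF were led by Gm11175, Celf5, an RNA-binding protein gene, and a site at -22632 bp from the start of Ptma, with RAD21 WT fold enrichments of 13.9, 9.58 and 5.52.

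**Figure D4:**
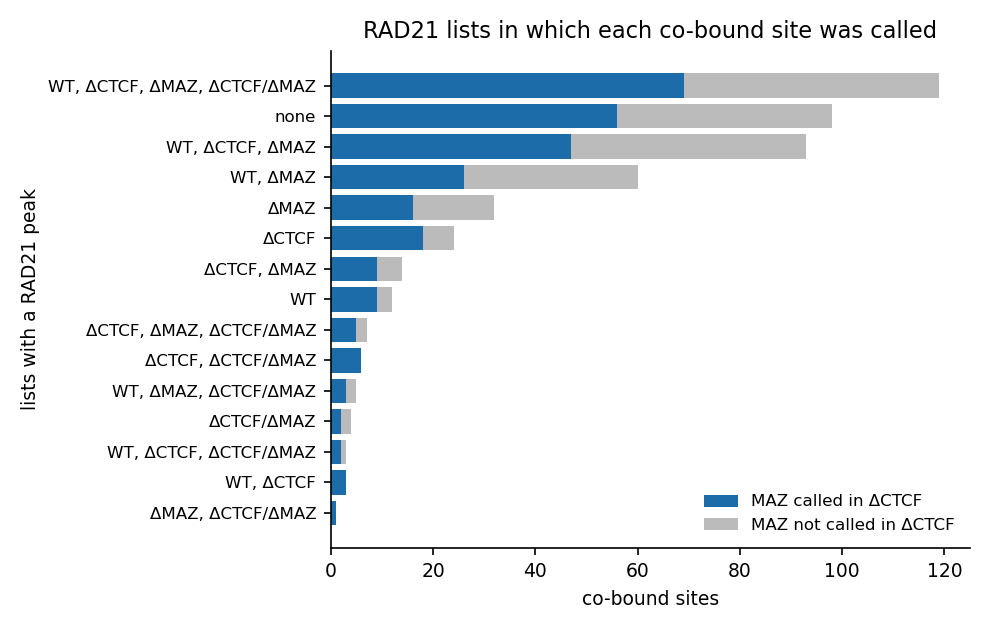
Number of co-bound sites by the set of RAD21 lists in which each was called, split by whether MAZ was called in ΔCTCF. The largest sets are all 4 lists with 119 sites and none with 98, and MAZ was called in ΔCTCF at 69 and 56 of them.

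The genes at co-bound sites were counted in lists of known function. Of 21911 protein-coding genes, 365 had a co-bound MAZ summit within 1 kb of a start site, 1.67% (1.50 to 1.84). Of 26 genes of cohesin and architectural factors, 6 did, which is 23.1% (11.0 to 42.1): Bptf, Patz1, Stag1, Pds5b, Adnp and Esco1. Stag1 encodes a cohesin subunit, Pds5b a cohesin regulator, Esco1 an acetyltransferase of cohesin, and Patz1 a zinc finger protein related to MAZ. A MAZ WT peak lay within 1 kb of a start site at 17 of these 26 genes and a CTCF WT peak at 10, which is 65.4% and 38.5%, against 4592 and 1971 of all 21911 protein-coding genes. The genes of this list thus had peaks of each factor more often. Whether the peaks of both overlapped there more often than that would give was not tested. These lists were chosen with earlier results known, and a list this small gives a wide interval. At Pds5b the MAZ and CTCF WT fold enrichments were 6.68 and 40.7, with summits 37 bp apart, and RAD21 was called in all 4 conditions. At Stag1 they were 7.35 and 23.3, with summits 401 bp apart, and RAD21 was called in all 4 as well. At Adnp they were 6.56 and 6.58, and RAD21 was called in all but ΔCTCF/ΔMAZ. At Patz1 they were 7.58 and 19.1, and RAD21 was called in WT and ΔMAZ only. At Bptf they were 7.77 and 18.6, and RAD21 was called in ΔMAZ only. At Esco1 they were 4.09 and 25.01, and RAD21 was called in none. RAD21 was thus called in all 4 conditions at 2 of the 6 genes.

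In the other lists the counts were too small to be set apart from the 1.67% over all protein-coding genes. Pluripotency genes had 1 of 29, Tbx3, and GC-box zinc finger genes 2 of 36, Zfp219 and Zfp341. Hox genes had 1 of 39, Hoxa3, and ribosomal protein genes 2 of 85, Rps20 and Rpl5. Polycomb and DNA methylation genes had 0 of 34, imprinted genes 0 of 35, cell cycle genes 0 of 36 and clustered protocadherins 0 of 56. The upper ends of their 95% intervals were 10.2%, 9.89%, 9.64% and 6.42%. A MAZ WT peak lay within 1 kb of a start site at 26 of the 34 Polycomb and DNA methylation genes, and a CTCF WT peak at 0 of them. Among the protocadherins, whose clustered promoters are known CTCF sites, a CTCF WT peak lay there at 42 of 56 and a MAZ WT peak at 0.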

How the data were processed

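CTCF, MAZ and RAD21 ChIP-seq was made by the authors from cross-linked chromatin with Drosophila chromatin as a spike-in. Reads were mapped to mm10 with Bowtie 2, filtered and freed of duplicates with SAMtools, and peaks were called per library with MACS; whether a control entered peak calling is not given in the sources used here. Each deposited list holds a score (not used), a fold enrichment, which is a ratio, −log10 p and −log10 q values, and the summit; spike-in scaling did not enter the lists. Groups came from the titles. Of 20 samples, 12 had a list, and the other 8 were not analysed here. Read totals are not in the lists.

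A peak was called in another list when it overlapped a peak there by at least 1 bp; counts equalled those of bedtools 2.31.1 for 22 pairs of lists, and the code was tested on simulated data. Summits were placed on GENCODE M21 basic genes, with the nearest start site naming a site, and sequences came from GRCm38 (mm10) and RefSeq promoters. Intervals are 95% intervals, by Wilson's method for shares, Newcombe's for differences of shares and a normal approximation for weighted differences. Weighted shares average the other peaks' shares over 5 equal strength groups of the list, optionally split by promoter, with the co-bound sites' counts as weights. No test was made, since each group had 1 list. Named sites were the 5 highest MAZ and 5 highest CTCF fold enrichments, the 3 highest MAZ fold enrichments of 5 classes, the 3 closest and 3 farthest summits, and the listed genes; the 12 sites with higher CTCF after auxin were added after their values were seen. Windows on chromosome 18 or with over 30 bases of untranslated region were not printed. The co-bound sites and the gene lists were chosen with earlier results of these data known.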

Additional observations from a re-analysis of the deposited data

How the results depend on the processing

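Of 79 alternative values of 12 shares and distances, 55 stayed within the 95% interval of the reported value and 24 did not. With a reciprocal overlap of at least 50%, the co-bound share was 4.28%, MAZ called in ΔCTCF 40.7%, CTCF called in ΔMAZ 94.8%, RAD21 called in WT 56.7% and in ΔCTCF 48.5%, the CTCF core 16.4% and the MAZ core 33.2%. With a gap of up to 500 bp, the co-bound share was 11.2%, MAZ called in ΔCTCF 62.9%, CTCF called in ΔCTCF 14.1% and the CTCF core 8.38%. With a −log10 q of at least 5, MAZ called in ΔCTCF was 51.7%, RAD21 called in ΔCTCF 46.8% and in ΔCTCF/ΔMAZ 22.8%. With summits within 150 bp, the median distance was 55 bp, MAZ called in ΔCTCF 50.3%, CTCF called in ΔCTCF 22.7% and the CTCF core 16.9%. With lists of equal length, CTCF called in ΔCTCF was 40.1% of 137 sites, against 42.6% of other CTCF peaks, and RAD21 was called in WT at 21.2%, in ΔCTCF at 28.5% and in ΔMAZ at 25.8%. A window of 50 bp gave 5.82% for the CTCF core and 24.7% for the MAZ core. Leaving out peaks of the knockout MAZ lists or, as added after seeing the data, those in the Ctcf gene moved no value past its interval. The cause of these differences was not tested, beyond what each rule changes by construction. No paired analysis was possible because the lists carry 1 sample per group. No peak list has a replicate, so the spread between libraries is unknown, and a peak that was not called can be a weak one.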
